A study of Mus musculus with 6 samples.

Results

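The mouse Hox clusters were examined in long-term haematopoietic stem cells (LT-HSCs) of bone marrow, sorted by the fluorescence of a Trim47 reporter. Rows of the deposited expression table whose symbol begins with Hoxa, Hoxb, Hoxc or Hoxd, opposite-strand transcripts of the clusters included, gave 30 members among 26776 genes: 12 in the HoxA cluster, 10 in HoxB, 5 in HoxC and 3 in HoxD. Of them 25 encode proteins and 5 are antisense transcripts; 15 further Hox genes of the GENCODE M21 annotation were not analysed here. The study compared eGFPhi with eGFPlo LT-HSCs, 3 libraries each, and every library came from mice of the same genotype, Trim47+/eGFP, in which one Trim47 allele carries an enhanced green fluorescent protein reporter. The labels name no treatment other than the sort. They do not state the age or sex of the mice, the gate for LT-HSCs, or the animals behind each replicate, so the p-values reflect the spread among libraries, which may be technical. Trim47 itself stood at 21.6, 26.2 and 23.3 CPM (counts scaled to library size) in eGFPhi and at 7.28, 8.18 and 8.92 CPM in eGFPlo (log2 fold change 1.54, SE 0.11, edgeR adjusted p = 1.69e-05), in the direction of the sort labels.

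Hox genes encode homeodomain transcription factors and lie in 4 clusters (HoxA on chromosome 6, HoxB on 11, HoxC on 15 and HoxD on 2), in which genes of the same paralogue number descend from a common ancestor and low numbers sit at the 3′ end. In blood, HoxA and HoxB genes are used by stem and early progenitor cells and are shut down as cells mature, whereas HoxD genes are little used. Hoxa9 acts with the cofactors Meis1 and Pbx, forced Hoxb4 expression expands stem cells, and a Hoxb5 reporter has been used to mark mouse LT-HSCs.

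Library totals were 11221070 to 26058391 counts in eGFPhi and 11706873 to 18151852 in eGFPlo, so that 3 counts correspond to 0.115 to 0.267 CPM in a single library. CPM values were scaled with TMM factors over 18081 tested genes. Among those genes 64.0% differed at an adjusted p under 0.05, with 32.3% higher and 31.7% lower in eGFPhi, and the median log2 fold change was 0.00. Marker lists of blood cells differed as well. HSC markers were higher for 9 of 10 genes, with summed levels of 2217 to 2428 CPM in eGFPhi and 1005 to 1036 CPM in eGFPlo. All 8 granulocyte-monocyte progenitor markers were lower (290 to 297 against 5291 to 5405 CPM summed). So were all 9 B cell markers (736 to 760 against 6120 to 6209 CPM), of which Igll1 had no count in eGFPhi. Igll1 and Vpreb1 passed the filter on low counts only through eGFPlo. Of the 7 B cell markers at its level in both groups, 7 were lower. The T cell list summed to 0 to 0.257 CPM in eGFPhi and 8.22 to 11.6 CPM in eGFPlo, and Cd3d, Cd3e, Cd3g and Trbc2 had no count in eGFPhi. Erythroid markers were lower for 3 of 4 genes (15.6 to 17.1 against 27.8 to 30.2 CPM), and megakaryocyte markers were higher for 4 of 4 (298 to 307 against 103 to 111 CPM). Of 5 stroma and endothelium markers 2 were tested, 1 higher and 1 lower (62.6 to 64.5 against 66.0 to 71.6 CPM), with Cdh5 at 0 in eGFPhi and Lepr at 0 in eGFPlo. Most of that sum was Pecam1, at a mean of 58.8 CPM in eGFPhi and 68.5 CPM in eGFPlo. Cxcl12 was higher, at 4.33 against 0.932 CPM, but passed the filter only through eGFPhi. The part of these marker differences in the Hox results below was not tested. In such pooled RNA fewer cells of a type and less RNA per cell cannot be told apart.

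The start regions of 5 members are shown because they stand for the ends of the response within a cluster, and they were chosen after the values were seen: Hoxa5 and Hoxa9 had the largest and the smallest fold change among HoxA members above 20 CPM in eGFPhi, Hoxb8 and Hoxb4 the highest count ratio among HoxB rows with a count in eGFPlo and the smallest fold change in HoxB, and Hoxa2 carries the recognition letters of the cofactors described further on. Each window is the 300 bases from 250 before to 50 after an annotated start (RefSeq, GRCm38.p6), written 5′ to 3′ along the gene. Capitals mark matches, on either strand, to TATAAA (the TATA box), CCAAT (the CCAAT box), TGATTNAT (joined Hox and Pbx sites) and TGACAG (the Meis site).
Hoxa2, chr6:52164782-52165081, minus strand: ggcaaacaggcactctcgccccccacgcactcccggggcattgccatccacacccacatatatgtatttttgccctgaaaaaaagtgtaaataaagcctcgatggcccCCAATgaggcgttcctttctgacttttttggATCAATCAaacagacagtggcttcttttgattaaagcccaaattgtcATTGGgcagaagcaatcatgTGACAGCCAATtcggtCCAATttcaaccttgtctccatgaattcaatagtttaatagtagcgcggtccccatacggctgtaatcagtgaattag
Hoxa5, chr6:52204538-52204837, minus strand: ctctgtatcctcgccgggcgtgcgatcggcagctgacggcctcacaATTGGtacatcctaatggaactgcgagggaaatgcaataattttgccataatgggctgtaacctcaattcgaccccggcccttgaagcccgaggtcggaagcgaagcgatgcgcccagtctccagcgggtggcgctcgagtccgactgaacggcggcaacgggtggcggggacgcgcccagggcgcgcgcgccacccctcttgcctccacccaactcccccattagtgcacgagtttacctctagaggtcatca
Hoxa9, chr6:52227321-52227620, minus strand: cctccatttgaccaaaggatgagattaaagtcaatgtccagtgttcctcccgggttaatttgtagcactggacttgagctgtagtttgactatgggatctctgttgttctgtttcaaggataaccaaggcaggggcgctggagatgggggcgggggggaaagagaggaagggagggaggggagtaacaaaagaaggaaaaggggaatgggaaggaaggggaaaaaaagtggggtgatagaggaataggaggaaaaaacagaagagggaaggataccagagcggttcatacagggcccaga
Hoxb4, chr11:96318017-96318316, plus strand: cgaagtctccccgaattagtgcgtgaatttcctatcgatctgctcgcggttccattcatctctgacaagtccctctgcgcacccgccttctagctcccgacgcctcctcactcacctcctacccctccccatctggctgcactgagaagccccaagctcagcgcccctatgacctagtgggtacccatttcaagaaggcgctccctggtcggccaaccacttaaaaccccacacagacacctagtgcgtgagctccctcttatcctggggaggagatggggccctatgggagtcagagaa
Hoxb8, chr11:96281655-96281954, plus strand: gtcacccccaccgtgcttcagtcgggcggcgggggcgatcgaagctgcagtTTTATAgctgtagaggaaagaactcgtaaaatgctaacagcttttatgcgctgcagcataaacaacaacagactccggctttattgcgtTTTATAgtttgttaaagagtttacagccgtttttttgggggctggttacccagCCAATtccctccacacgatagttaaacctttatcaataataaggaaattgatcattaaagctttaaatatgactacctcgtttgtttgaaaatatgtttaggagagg

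The Hoxa2 window held 4 CCAAT matches, 1 Hox-Pbx match and 1 Meis match, the last directly before a CCAAT match without overlap. Hoxb8 had 2 TATAAA matches and 1 CCAAT match, Hoxa5 had 1 CCAAT match, and no listed letters occurred in the Hoxa9 and Hoxb4 windows. Among 32851 windows of the same length, 13.6% held TATAAA, 37.4% CCAAT, 3.22% TGATTNAT and 19.2% TGACAG. CG dinucleotides, which are dense at the starts of many developmental genes, numbered 29 in the Hoxa5 window, 14 in Hoxb4, 13 in Hoxb8, 9 in Hoxa2 and 4 in Hoxa9, against a median of 7 over all windows. In all, 14 members matched the RefSeq table, in 15 windows with a median of 14 CG. The Hoxa9 window lies inside the gene as the table bounds it, since that gene model also includes a start further upstream.

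Hox transcripts were higher in eGFPhi in both clusters that were well measured. The summed level of the 12 HoxA rows was 204, 215 and 204 CPM in eGFPhi and 116, 84.1 and 115 CPM in eGFPlo, and that of the 10 HoxB rows was 55.5, 57.9 and 62.9 CPM in eGFPhi and 24.5, 22.4 and 23.4 CPM in eGFPlo. HoxC rows summed to 1.39 to 2.05 CPM in eGFPhi and 0 to 0.332 CPM in eGFPlo, and HoxD rows to 0 CPM in eGFPhi and 0 to 0.664 CPM in eGFPlo. By cluster, the means over 3 libraries were 1.98-fold higher for HoxA and 2.51-fold higher for HoxB. HoxA rows made up 77.5 ± 1.21% of the summed Hox CPM in eGFPhi and 81.4 ± 2.05% in eGFPlo (SD, n = 3 each).

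Of the 30 members 19 passed the filter on low counts, and of these 17 rose, 0 fell and 2 did not pass the test, beside 32.3% of all tested genes that rose and 31.7% that fell. The count of 0 falls was the same at an unadjusted p under 0.05 and by DESeq2 and limma-voom. At least 2-fold rises were found for 14 members, against 12.9% of all genes tested, and the median log2 fold change of the 19 was 1.53. The groups did not overlap, with eGFPhi on top, for 17 of the 19, against 35.2% of tested genes; 0 of the 19 had eGFPhi wholly underneath, against 34.6% of tested genes. The filter itself favours such differences: 6 of the 19, among them Hoxb5, Hoxb6, Hoxb8, Hoxb9 and Hoxc6, reached its level of 0.616 CPM in every eGFPhi library but not in every eGFPlo library, so they could enter the test only by being high in eGFPhi, and the counts and the median over the 19 describe the rows that passed, not all 30. The antisense row Hoxaas3 entered through eGFPlo. Among the 12 that reached that level in both groups, 11 rose. The share of all genes at that level in both groups was not computed, and the 32.3% covers every tested gene. The 11 include Hoxa4, whose call was fragile, and Hoxb3os, whose exons lie partly opposite those of Hoxb2 and Hoxb3.

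**Figure D1:**
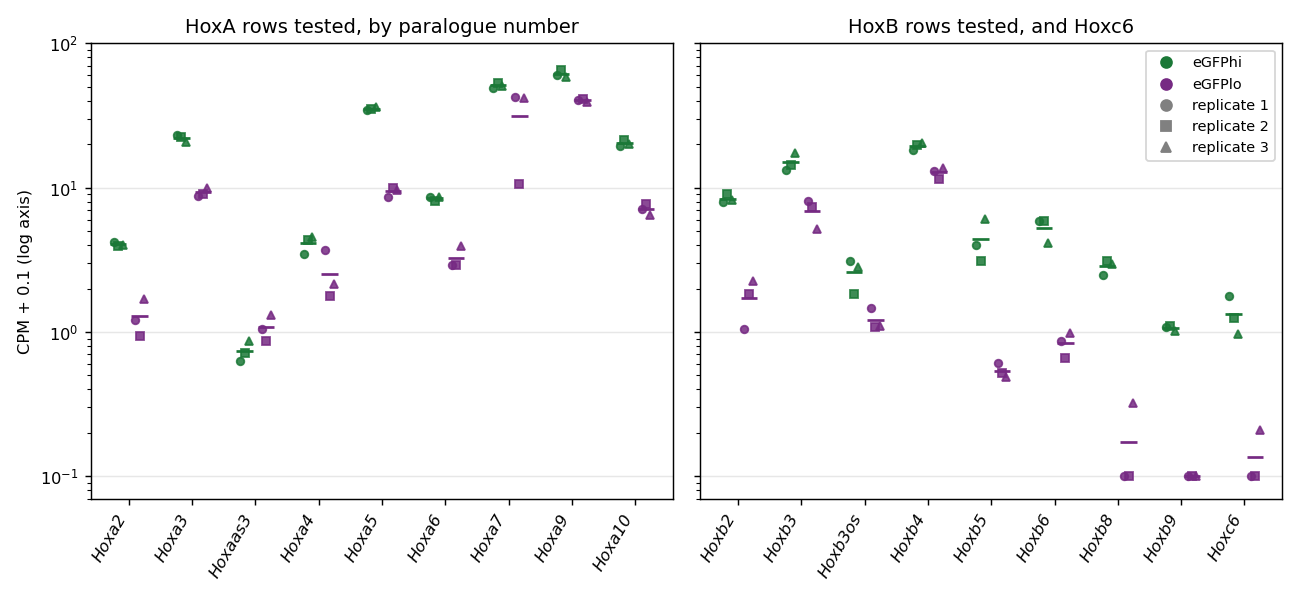
CPM plus 0.1, on a log axis, of the tested members named in the text, in each library, with HoxA rows at left and HoxB rows and Hoxc6 at right in order of paralogue number. Symbols are replicates, horizontal bars are means of 3 libraries, and eGFPhi stands left of eGFPlo; only Hoxaas3 has a lower mean in eGFPhi, and the eGFPlo libraries of Hoxa7 are spread from 10.5 to 42.5 CPM before the 0.1 is added.

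Towards the 3′ end of the HoxA cluster, on chromosome 6 (GRCm38), Hoxa2 rose. Hoxa2 (ENSMUSG00000014704), which patterns the second pharyngeal arch in embryos, stood at 4.09, 3.84 and 3.90 CPM in eGFPhi and at 1.11, 0.839 and 1.61 CPM in eGFPlo. The groups did not overlap, and the log2 fold change was 1.69 (SE 0.22, adjusted p = 0.000398).

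Of the next genes, Hoxa3 rose without overlap and the call of Hoxa4 was fragile. Hoxa3 (ENSMUSG00000079560), known for its part in thymus and parathyroid formation, had 23.0, 22.3 and 20.7 CPM in eGFPhi and 8.65, 9.02 and 9.91 CPM in eGFPlo (2.38-fold, log2 1.25, SE 0.09, adjusted p = 1.58e-05). Its gene model, from 52169062 to 52213336, spans Hoxa4, Hoxa5 and Hoxa6. Hoxa4 (ENSMUSG00000000942) had 3.38, 4.26 and 4.47 CPM in eGFPhi and 3.60, 1.68 and 2.05 CPM in eGFPlo. Here the groups overlapped, because eGFPlo replicate 1 lay above eGFPhi replicate 1. The log2 fold change of Hoxa4 was 0.78 (SE 0.27, adjusted p = 0.0378), a call that was lost with DESeq2 (adjusted p = 0.0796) and without eGFPhi replicate 2 (0.0945), eGFPhi replicate 3 (0.0992), eGFPlo replicate 2 (0.110) or eGFPlo replicate 3 (0.120).

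Hoxa5 (ENSMUSG00000038253, 52201754 to 52204587, minus strand) showed the largest fold change of the HoxA members measured above the filter level in both groups. It stood at 34.2, 35.0 and 35.9 CPM in eGFPhi and at 8.57, 9.92 and 9.52 CPM in eGFPlo, a 3.74-fold rise (log2 1.90, SE 0.07, adjusted p = 8.34e-07). Hoxa5 is known for its part in lung development and for effects on the erythroid and myeloid fates of progenitors. Hoxa6 (ENSMUSG00000043219), its 5′ neighbour, rose 2.59-fold, with 8.46, 7.99 and 8.53 CPM in eGFPhi and 2.83, 2.80 and 3.88 CPM in eGFPlo (log2 1.37, SE 0.15, adjusted p = 0.000154). For neither gene did the groups overlap.

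Hoxa7, a gene often raised in leukaemias with MLL rearrangement, did not pass the test. Its levels were 49.3, 53.2 and 51.0 CPM in eGFPhi and 42.5, 10.5 and 41.5 CPM in eGFPlo (ENSMUSG00000038236; log2 fold change 0.70, SE 0.41, adjusted p = 0.173). The groups did not overlap, but eGFPlo replicate 2 lay far below the other eGFPlo libraries, while Hoxa6 and Hoxa9 on either side did not share the dip. Without that library Hoxa7 passed at a smaller log2 fold change of 0.29 (adjusted p = 0.00448), and it passed too when the coefficient of variation was set to 0.2 (adjusted p = 0.0126). The set value lies far below the spread of Hoxa7 in eGFPlo (31.5 ± 18.2 CPM, SD, n = 3). It leaves that spread out, so passing at it cannot decide whether Hoxa7 differs. Looked at after these values were seen, 9636 genes had at least 10 CPM in both other eGFPlo libraries, and 5 of them, Hoxa7 included, had under 0.333 of the level of both in replicate 2; the same count was 6 to 12 genes for each of the remaining 5 libraries.

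Hoxa9 (ENSMUSG00000038227, 52223100 to 52231089), whose overexpression drives stem cell expansion and leukaemia, rose with a small error. It stood at 60.2, 65.7 and 58.2 CPM in eGFPhi and at 40.6, 41.0 and 39.0 CPM in eGFPlo. Its rise was 1.53-fold (log2 0.61, SE 0.06, adjusted p = 6.78e-05), with no overlap between groups. Hoxa10 (ENSMUSG00000000938), a neighbour on its 5′ side with a like role in progenitor growth, rose 2.90-fold, at 19.4, 21.3 and 19.9 CPM in eGFPhi and 7.02, 7.62 and 6.37 CPM in eGFPlo (log2 1.53, SE 0.10, adjusted p = 8.78e-06). The Hoxa9 to Hoxa10 ratio was therefore 3.10, 3.09 and 2.92 in eGFPhi and 5.78, 5.38 and 6.13 in eGFPlo. Hoxa9 and Hoxa7 together made up 41.9 ± 1.32% of all Hox CPM in eGFPhi and 55.0 ± 5.90% in eGFPlo (SD, n = 3 each).

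**Figure D2:**
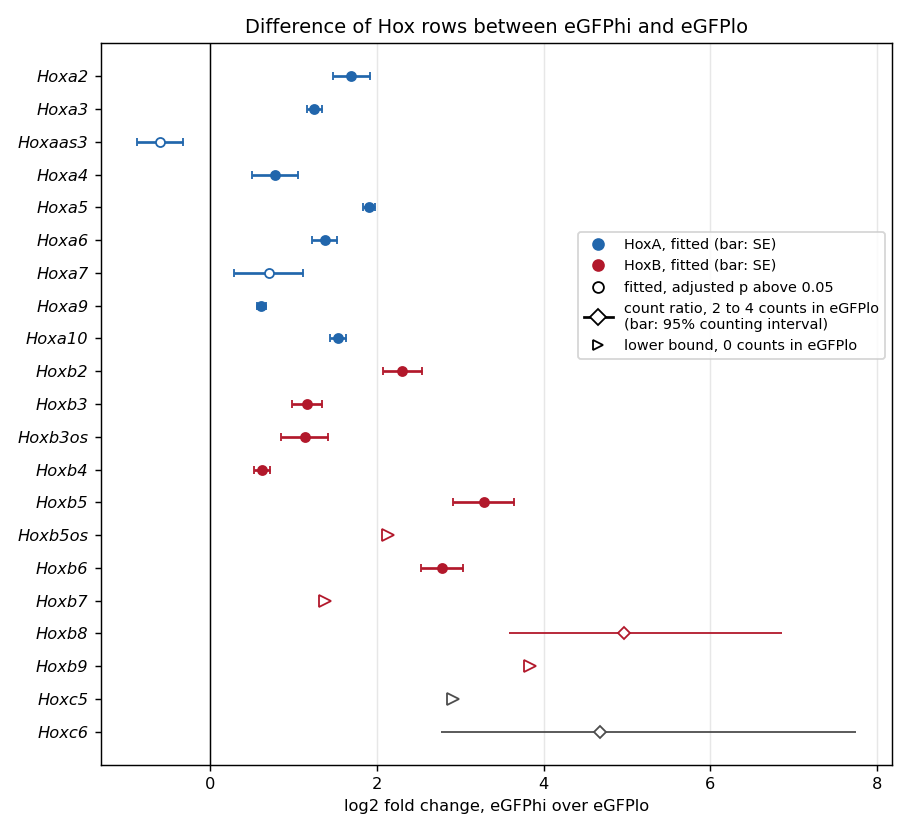
Log2 fold change, eGFPhi over eGFPlo, of the tested members named in the text and of 3 untested ones with a bound, from the 3′ to the 5′ end of each cluster. Circles are edgeR estimates with SE (open where the adjusted p is above 0.05), and diamonds are count ratios with 95% counting intervals. Triangles, labelled lower bounds, set the observed eGFPhi level against 3 counts in eGFPlo and leave out the counting error of eGFPhi. Estimates run from -0.60 for Hoxaas3 to 3.28 for Hoxb5.

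In the HoxB cluster all 8 tested rows rose, beside 32.3% of all tested genes. The rise was smallest for Hoxb4, at 1.54-fold, and larger on both sides of it, with 4.94-fold for Hoxb2 towards the 3′ end. The 5′ members Hoxb5, Hoxb6, Hoxb8 and Hoxb9, however, entered the test only by being high in eGFPhi. Their fold changes therefore cannot be read as a trend along the cluster. Hoxb4 (ENSMUSG00000038692, 96318267 to 96321638, plus strand), the gene used to expand stem cells in culture, had the smallest fold change of the cluster, at 18.1, 19.7 and 20.4 CPM in eGFPhi and 12.9, 11.4 and 13.6 CPM in eGFPlo. It rose 1.54-fold (log2 0.62, SE 0.10, adjusted p = 0.000843). Hoxb3 (ENSMUSG00000048763), which shares functions with Hoxb4 in stem cells, rose 2.23-fold, with 13.2, 14.4 and 17.2 CPM in eGFPhi and 7.97, 7.27 and 5.09 CPM in eGFPlo (log2 1.16, SE 0.18, adjusted p = 0.000893). Hoxb2 (ENSMUSG00000075588), at the 3′ end of the measured cluster, rose 4.94-fold, with 7.83, 8.88 and 8.07 CPM in eGFPhi and 0.942, 1.75 and 2.16 CPM in eGFPlo (log2 2.30, SE 0.23, adjusted p = 9.36e-05). None of these 3 genes had overlapping groups.

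The tested genes 5′ of Hoxb4 had larger fold changes than Hoxb4, but they could pass the filter only by being high in eGFPhi. Hoxb5 (ENSMUSG00000038700, 96303336 to 96306121), the LT-HSC reporter gene, had 3.92, 3.00 and 5.96 CPM in eGFPhi and 0.514, 0.419 and 0.388 CPM in eGFPlo. This 9.73-fold rise (log2 3.28, SE 0.36, adjusted p = 0.000160) was exceeded by 427 of the 18081 tested genes. Hoxb6 (ENSMUSG00000000690), expressed in early myeloid and erythroid progenitors, had 5.79, 5.80 and 4.01 CPM in eGFPhi and 0.771, 0.559 and 0.886 CPM in eGFPlo (6.88-fold, log2 2.78, SE 0.25, adjusted p = 5.29e-05). Both genes were several times above eGFPlo in every eGFPhi library, and the Hoxb4 to Hoxb5 ratio was 4.61, 6.59 and 3.42 in eGFPhi and 25.2, 27.2 and 35.1 in eGFPlo.

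The most 5′ HoxB members had few counts or none in eGFPlo. Hoxb8 (ENSMUSG00000056648), which can hold myeloid progenitors in an immature state, had 27, 78 and 56 counts in eGFPhi and 0, 0 and 4 counts in eGFPlo, a ratio of 31.2 with a 95% counting interval of 11.97 to 116 (edgeR adjusted p = 0.000177). Without eGFPlo replicate 3 the eGFPlo count of Hoxb8 is 0 and the gene was at least 24.6-fold higher, set against 3 counts over the remaining eGFPlo libraries. Hoxb9 (ENSMUSG00000020875) had 11, 26 and 18 counts in eGFPhi and none in eGFPlo, which makes it at least 14.2-fold higher against 3 counts over the group, or 8.40-fold without eGFPlo replicate 3 (edgeR adjusted p = 0.000277). Hoxb7 had 3, 3 and 4 counts in eGFPhi and none in eGFPlo, and was not tested because of the filter. Its observed eGFPhi level was 2.59-fold that of 3 counts in eGFPlo (1.53-fold without eGFPlo replicate 3). A count of 0 over the eGFPlo group allows a level of up to 0.0681 CPM. The at-least folds here and below take the observed eGFPhi level as exact and leave out its counting error. The true fold may therefore lie below them, most of all for rows with few eGFPhi counts.

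HoxC and HoxD members were at or near the detection limit. Hoxc6 (ENSMUSG00000001661) had 19, 30 and 17 counts in eGFPhi and 0, 0 and 2 counts in eGFPlo (ratio 25.6, counting interval 6.82 to 216, edgeR adjusted p = 0.000733; at least 10.1-fold higher without eGFPlo replicate 3). Its neighbour Hoxc5 (ENSMUSG00000022485) had 4, 15 and 10 counts in eGFPhi and none in eGFPlo, and was not tested. The observed eGFPhi level of Hoxc5 was 7.50-fold that of 3 counts in eGFPlo (4.43-fold without eGFPlo replicate 3). Exons of Hoxc5 share 166 bases with Hoxc10 on the same strand. The remaining 6 rows of these clusters had no count in eGFPhi or in eGFPlo replicates 1 and 2: eGFPlo replicate 3 alone held 1 count of Hoxc9, 2 of Hoxc10, 1 of Hoxc11, 4 of Hoxd4, 6 of Hoxd8 and 2 of Hoxd9. No count over the eGFPhi group allows up to 0.0529 CPM.

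eGFPlo replicate 3 stood apart in this respect beyond the Hox rows. It held 798 genes with no count in any other library, against 94 to 270 for each of the remaining 5, although its total was not the largest. The endothelial cadherin gene Cdh5 had 8 counts there and 0 in the other libraries. The other stroma and endothelium markers were counted in eGFPhi too. Col1a1 had 7 counts in eGFPlo replicate 3 but 15 in eGFPhi replicate 2. Lepr had 6, 13 and 14 counts in eGFPhi and none in eGFPlo. Cxcl12 had 56, 120 and 66 counts in eGFPhi and 8, 8 and 28 in eGFPlo, and Pecam1 was 1.17-fold lower in eGFPhi. The part of transcripts found only in eGFPlo replicate 3 in the HoxC and HoxD counts was not tested.

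Of the 5 antisense transcripts, Hoxb3os rose, Hoxaas3 did not pass the test and the others had too few counts to be tested. Hoxb3os (ENSMUSG00000084844, minus strand, opposite Hoxb3 and Hoxb2) had 3.03, 1.73 and 2.72 CPM in eGFPhi and 1.37, 0.978 and 0.997 CPM in eGFPlo (log2 1.13, SE 0.28, adjusted p = 0.00897). Of its 4201 exon bases 2250 lie opposite Hoxb3 exons and 953 opposite Hoxb2 exons, both of which rose. No source used here gives the strand setting of the counting, so its reads and those of its partners cannot be told apart. Hoxaas3 (ENSMUSG00000085696), opposite Hoxa3 and Hoxa7 over 297 and 586 bases, had 0.534, 0.615 and 0.771 CPM in eGFPhi and 0.942, 0.769 and 1.22 CPM in eGFPlo (log2 -0.60, SE 0.27, adjusted p = 0.0889). Its groups overlapped by a narrow margin, and it was the only tested member with a negative fold change. Hoxb5os, with 100 bases opposite Hoxb5, had 1, 6 and 10 counts in eGFPhi and none in eGFPlo. Its observed eGFPhi level was 4.40-fold that of 3 counts in eGFPlo (2.60-fold without eGFPlo replicate 3). Hoxaas2 had 3, 0 and 3 counts in eGFPhi and 0, 1 and 2 in eGFPlo, and Hoxa11os had 0, 2 and 3 in eGFPhi and 0, 0 and 1 in eGFPlo. Of the 10 tested members without exon overlap with another gene of the table, 10 rose, beside 32.3% of all tested genes; 4 of these (Hoxb6, Hoxb8, Hoxb9 and Hoxc6) entered the test only by being high in eGFPhi.

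Levels between genes were compared as CPM per kilobase of merged exons. In eGFPhi the order began with Hoxa5 at 18.7 ± 0.448 and Hoxa7 at 17.8 ± 0.682 CPM per kb, whose libraries overlapped (18.2 to 19.1 and 17.1 to 18.5). Below them came Hoxa9 at 11.0 ± 0.701, Hoxa6 at 9.53 ± 0.333, Hoxb4 at 7.56 ± 0.468 and Hoxa10 at 6.18 ± 0.297 CPM per kb, with no overlap between neighbours in that order on this scale. Hoxa3 at 3.65 ± 0.198 and Hoxb3 at 3.51 ± 0.488 overlapped, and Hoxb6, Hoxa4, Hoxb2, Hoxa2, Hoxb5 and Hoxb8 followed, at 2.65 to 1.05 CPM per kb. In eGFPlo the order began with Hoxa7 at 10.9 ± 6.33, followed by Hoxa9 at 7.20 ± 0.183, Hoxa5 at 4.98 ± 0.372, Hoxb4 at 4.93 ± 0.445, Hoxa6 at 3.62 ± 0.704 and Hoxa10 at 2.14 ± 0.191 CPM per kb (SD, n = 3 throughout). Hoxa5 and Hoxb4 did not differ there beyond their spread, and Hoxa7 spanned the range of several genes through eGFPlo replicate 2. By the authors' FPKM, whose gene length for Hoxa7 is longer than its merged exons, Hoxa7 averaged 9.22 in eGFPhi and Hoxa6 9.53. By that measure Hoxa9 (8.38) also came below Hoxa6, and Hoxa10 (2.99) below Hoxa3 (3.40). Hoxb3 (2.48) came below Hoxa4 (2.53), and Hoxb6 (1.58) below Hoxa4, Hoxa2 (2.22) and Hoxb2 (1.73). The places of Hoxa7, Hoxa9, Hoxa10 and several lower members therefore depend on the gene length used. No source used here says how reads shared between paralogues were counted.

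**Figure D3:**
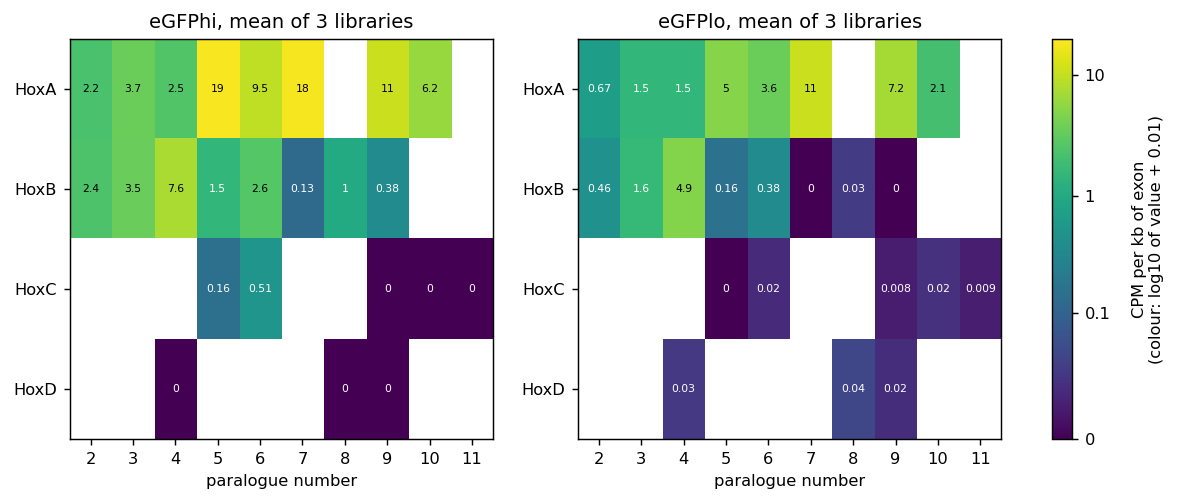
Mean CPM per kilobase of merged exons (3 libraries) of the protein-coding members named in the text, by cluster and paralogue number, in eGFPhi at left and eGFPlo at right; colour follows the log10 of the value plus 0.01 and empty cells have no value. HoxA numbers 5 to 10 and Hoxb4 hold the highest values in both groups, and HoxD is at 0 in eGFPhi.

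The cofactors that bind DNA with Hox proteins were measured by a list of TALE homeodomain genes and their interactor Pbxip1. Among the 9 with a row, 6 rose and 3 fell, beside 32.3% and 31.7% of all tested genes. Meis2 and Meis3 passed the filter on low counts only through eGFPhi; of the 7 at its level in both groups, 4 rose and 3 fell. Meis1, the partner of Hoxa9 in stem cells, had 523, 501 and 532 CPM in eGFPhi and 262, 265 and 255 CPM in eGFPlo (1.99-fold, log2 0.99, SE 0.03, adjusted p = 2.14e-07). The libraries of each group lay close together.

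The other family members differed in direction. Meis3 had 5.07, 7.45 and 6.16 CPM in eGFPhi and 0.514, 0.349 and 0.498 CPM in eGFPlo (13.7-fold, log2 3.78, SE 0.24, adjusted p = 9.95e-06). Meis2 had 1.69, 1.92 and 1.49 CPM in eGFPhi and no count in eGFPlo. Its observed eGFPhi level was 25.4-fold that of 3 counts in eGFPlo (14.96-fold without eGFPlo replicate 3, against 3 counts over fewer libraries). Pbx3, raised in leukaemias together with Hoxa9, rose 1.85-fold to 21.9 ± 2.38 CPM in eGFPhi, against 11.7 ± 2.12 CPM in eGFPlo (SD, n = 3 each), and Pbx2 rose 1.14-fold (adjusted p = 0.0190), a call lost with DESeq2 (0.0755) and without eGFPhi replicate 3 (0.0602) or eGFPlo replicate 2 (0.0580). Pknox1, another TALE partner, was 1.31-fold lower, at 26.9 ± 0.602 CPM in eGFPhi and 35.4 ± 2.91 CPM in eGFPlo, and Pbx4 and Pbxip1 were 1.30-fold and 1.17-fold lower. The Pbx4 call was lost without eGFPhi replicate 3 (adjusted p = 0.0501), and the calls of Pbx2, Pbx4, Pknox1 and Pbxip1 were all lost at a set coefficient of variation of 0.2 (adjusted p = 0.592, 0.253, 0.209 and 0.510).

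**Figure D4:**
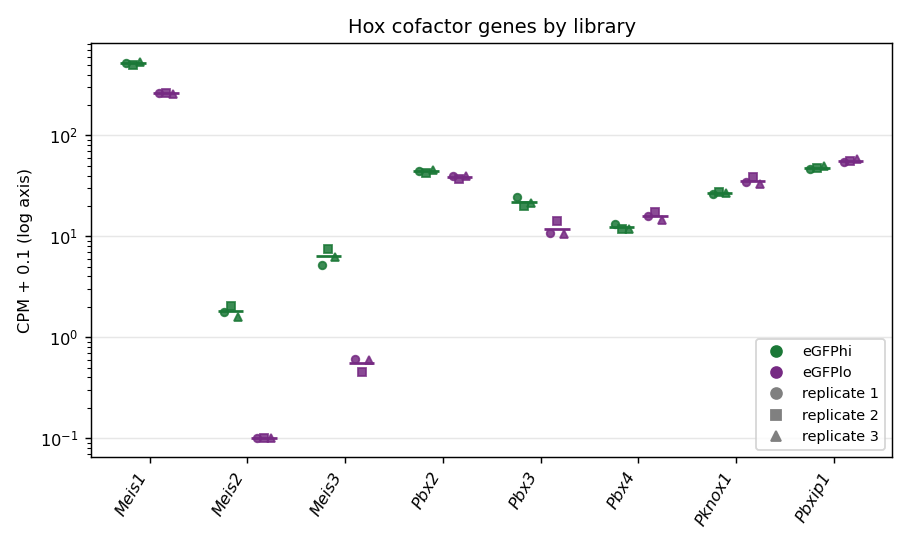
CPM plus 0.1, on a log axis, of Hox cofactor genes named in the text, in each library, eGFPhi left of eGFPlo, with means of 3 libraries as bars. Meis1, Meis2, Meis3 and Pbx3 are clearly higher in eGFPhi, and Pbx2, Pbx4, Pknox1 and Pbxip1 differ by less than 1.5-fold.

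Upstream of Hox genes, MLL (Kmt2a) and the DOT1L complex keep Hox chromatin active and Polycomb complexes silence it. The first list had 18 measured genes, of which 5 rose, 10 fell and 3 did not pass, beside 32.3% of all tested genes that rose and 31.7% that fell; its median log2 fold change was -0.21. Mllt3, also on the HSC marker list and a subunit that binds acetylated histones and maintains human stem cells, rose 3.41-fold, to 258 ± 3.79 CPM in eGFPhi against 75.9 ± 3.57 CPM in eGFPlo. Kmt2a itself had 605, 586 and 571 CPM in eGFPhi and 430, 429 and 433 CPM in eGFPlo (1.36-fold, log2 0.45, SE 0.02, adjusted p = 4.42e-06), and the elongation factor gene Aff4 rose 1.46-fold while Aff1 was 1.19-fold lower. At a set coefficient of variation of 0.2, the calls of Kmt2a, Aff4 and Aff1 were lost (adjusted p = 0.130, 0.0568 and 0.442). Among the 10 that fell, given from the main fit only, were Dot1l itself and the listed genes Wdr5, Ash2l, Rbbp5 and Dpy30. Dot1l was 1.29-fold lower, at 119 ± 2.60 CPM in eGFPhi and 153 ± 6.66 CPM in eGFPlo (edgeR adjusted p = 0.000137).

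Of 13 Polycomb genes 4 rose, 5 fell and 4 did not pass, shares near those of all tested genes (32.3% higher and 31.7% lower), and the median log2 fold change was 0.02. Ezh2, the methyltransferase linked to dividing cells, was 1.80-fold lower, at 83.5 ± 3.41 CPM in eGFPhi and 150.2 ± 4.06 CPM in eGFPlo (log2 -0.85, SE 0.04, adjusted p = 2.08e-06). Cbx7 and Cbx2, alternative chromodomain subunits, went in opposite directions: Cbx7 rose 2.02-fold, with 44.3 ± 2.61 CPM in eGFPhi and 22.0 ± 0.567 CPM in eGFPlo, and Cbx2 was 1.51-fold lower, with 13.3 ± 0.315 CPM in eGFPhi and 20.03 ± 1.21 CPM in eGFPlo. Pcgf2, a subunit known for its part in Hox regulation, rose 2.72-fold, at 16.0 ± 1.94 CPM in eGFPhi and 5.88 ± 0.812 CPM in eGFPlo (log2 1.44, SE 0.14, adjusted p = 7.95e-05).

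On a list of 12 homeobox genes of blood outside the clusters, 3 rose, 5 fell and 4 did not pass, beside 32.3% and 31.7% of all tested genes, and the median log2 fold change was -0.10. Satb1, a chromatin organiser of lymphoid cells, was 3.14-fold lower, at 42.0, 38.5 and 39.5 CPM in eGFPhi and 125, 121 and 128 CPM in eGFPlo (log2 -1.65, SE 0.05, adjusted p = 1.91e-07). Zeb2 was 1.27-fold lower, whereas Cux1 and Zhx2 rose 1.12-fold and 1.54-fold; the calls of Zeb2 and Cux1 were lost at the set value of 0.2 (adjusted p = 0.259 and 0.645).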

How the data were processed

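The table holds, per the file headers, raw counts for each gene in the 6 libraries. It also holds FPKM values that the authors derived from them with a gene length of their own. Per the labels' protocols, RNA with an integrity number above 7.0 was poly-A selected and made into stranded paired-end libraries. The submitters' processing notes list CASAVA 1.8, HISAT2, StringTie and edgeR without roles, and the builds hg38 and GRCm38; all 30 members have the coordinates of GENCODE M21 (GRCm38), which also gave exon lengths and overlaps. No source used here names the counter, its strand setting or its treatment of shared reads.

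All genes were fitted in R 4.3.3 with edgeR 4.0.16: filterByExpr (minimum count 10, minimum total 15; 18081 genes), TMM factors, quasi-likelihood F test on group, Benjamini-Hochberg adjustment over all tested genes, threshold 0.05. Alternatives used DESeq2 1.42.0, limma 3.58.1 (also on log2 of FPKM plus 1), other factors and filters, a replicate block, leaving out each library and, added after the data were seen, an assumed coefficient of variation of 0.2. The fitting code was run on simulated data with few changed genes and the same spread for every gene. The real data differ on both points, so that run cannot speak for the error rates here. Counting intervals are exact, at 95%; intervals and floors cover counting error only.

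Members and lists were chosen with earlier results of these data known. Members of at least 1 CPM, and others past the threshold, are given with values. From each further list the genes past the threshold with the smallest p were named, at most 4. The cofactors are given more fully, and Dot1l, Wdr5, Ash2l, Rbbp5 and Dpy30 were added. Values of 1 member and 1 cofactor are not reported here, though counts and sums over the lists include them. A planned correlation between members was not computed, since the 6 libraries fall into separate groups.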

Additional observations from a re-analysis of the deposited data

How the results depend on the processing

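Among 19 Hox members tested, 17 rose and 0 fell; the count of rises was 16 or 17 with RLE or upper-quartile factors, DESeq2, limma-voom, limma on log2 of FPKM plus 1 and without any single library, 20 without a filter and 18 with an assumed coefficient of variation of 0.2. It was 8 of 9 when at least 5 CPM in 3 libraries was required and 10 of 10 among members without exon overlap, both because fewer members were tested. Without a filter, the untested Hoxb5os (adjusted p = 0.0191), Hoxb7 (0.0179) and Hoxc5 (0.00198) were called higher. Among the 19 tested members no fold change changed sign under these settings, and calls changed for Hoxa4 and Hoxa7, as given above. Over all genes, 3637 rose and 2982 fell with the assumed coefficient of variation of 0.2, against 5840 and 5731, and 5302 to 5734 rose and 5230 to 5693 fell when a library was left out. The Hoxa9 to Hoxa5 ratio of levels in eGFPhi was 0.589 per kilobase of merged exons and 0.449 by FPKM, which uses another gene length. Replicate numbers are not said to pair libraries, and same-numbered libraries showed no correlation of residuals (r = -0.00287, -0.00599 and -0.00630); with the replicate block 5551 genes rose and 5414 fell, 16 Hox members rose, and Hoxa4 did not pass (adjusted p = 0.0706). At the depth of these libraries, 11 members were not tested, 8 of them with at most 6 counts in eGFPhi and at most 6 in eGFPlo.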

Other observations

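Other transcripts of the cluster regions were scarce. The microRNA gene row Mir196b, inside Hoxa9, had 1, 1 and 1 counts in eGFPhi and 0, 0 and 1 in eGFPlo. The microRNA gene row Mir10a, between Hoxb5 and Hoxb4, had 1, 1 and 2 counts in eGFPhi and 1, 1 and 1 in eGFPlo. Such short rows in poly-A selected RNA say little about the mature microRNAs. Hotairm1, a further row inside HoxA, had 4, 4 and 3 counts in eGFPhi and 1, 2 and 1 in eGFPlo, and was not tested. The predicted gene models inside the clusters had at most 1 count in each library.

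The nearest named genes on either side of the clusters with at least 1 CPM did not share one direction. Skap2, an adaptor gene beside HoxA, stood at 148 ± 3.38 CPM in eGFPhi and 122 ± 2.57 CPM in eGFPlo (1.21-fold higher, edgeR adjusted p = 0.000188), and Hibadh on the other side did not pass (adjusted p = 0.210). Beside HoxB, Skap1, a T cell adaptor gene, was 4.28-fold lower, at 0.724 ± 0.146 CPM in eGFPhi and 2.98 ± 0.546 CPM in eGFPlo (adjusted p = 0.000162), and Atp5g1 was 1.80-fold lower (adjusted p = 0.0190). Calcoco1 beside HoxC was 1.25-fold higher (adjusted p = 0.000392) and Smug1 did not pass (adjusted p = 0.331). Beside HoxD, Lnpk was 1.99-fold lower, at 14.3 ± 0.432 CPM in eGFPhi and 28.4 ± 3.01 CPM in eGFPlo (adjusted p = 6.15e-05), and Mtx2 did not pass (adjusted p = 0.115); all errors are SD with n = 3 each.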
